A study of Mus musculus with 8 samples.

Results

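The 8 genes described here are Chaf1a, Chaf1b, Rbbp4, Rbbp7, Asf1a, Asf1b, Nasp and Pcna. The first 4 encode the subunits of chromatin assembly factor 1 (CAF-1) or, for Rbbp7, a close paralogue of the small subunit. The others encode proteins that supply CAF-1 with new histones or bring it to replicating DNA. Probes were assigned through the RefSeq accession that each carries in the scanner files, and the 8 genes are 8 of the 20656 gene symbols named in this way. They had 12 of the 55681 probes of the array, 2 each for Chaf1b, Rbbp4, Rbbp7 and Nasp and 1 each for the other 4. All 12 probes were tested, and 11 were well above background on all 8 arrays. The exception was the Asf1a probe.

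CAF-1 places newly made histones H3 and H4 on DNA behind the replication fork. Its large subunit, p150, is encoded by Chaf1a, its middle subunit, p60, by Chaf1b, and its small subunit by the histone-binding gene Rbbp4, whose close paralogue Rbbp7 serves in related complexes. New H3-H4 is stored and protected by NASP and handed to CAF-1 by the ASF1 proteins, and CAF-1 is recruited to the fork by binding PCNA, the sliding clamp of the DNA polymerases. In the early mouse embryo this supply must work through rapid cleavage divisions, first with maternal and then with embryonic transcripts.

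Mouse embryos were made by in vitro fertilization, injected at the 1-cell stage, cultured in the embryo medium KSOM and collected as morulae at embryonic day 3.0. The siControl group (3 samples) received a control siRNA and the P150KD group (5 samples) an siRNA against P150. Each sample was RNA from 10 pooled embryos that was amplified linearly in 2 rounds and labelled with Cy3 as an equal mass of amplified RNA, so that a change in total RNA per embryo would not be seen. Strain, age of the parents and siRNA sequences are not given in the sources used here, and neither is whether the samples were collected on separate occasions. The p-values rest on the differences among these 8 samples, which may be technical. Each value below is a log2 signal minus that of its own array's 75th percentile, and a probe was said to rise or fall where its limma p-value, adjusted over 30348 tested probes, was under 0.05. With 3 arrays against 5, a change that did not pass is not shown to be absent. The share of spots well above background ran from 50.1% to 55.9% by array, and no spot was saturated. All 12 morula and lineage genes examined were above background on all 8 arrays. Of the 10 cumulus and granulosa cell markers, Has2, Ptgs2, Ptx3, Tnfaip6, Fshr and Inhba were above it on none. Foxl2, another of these markers, was above it on all 8, with means of 0.77 in siControl and 0.94 in P150KD. Cyp19a1 was above it on 2 of 3 siControl and 2 of 5 P150KD arrays. The linear levels of the cumulus list summed to between 1.86 and 2.25 times the 75th percentile in siControl and between 1.60 and 2.65 in P150KD.

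The transcript targeted by the siRNA was lower on every knockdown array. Chaf1a read 2.40, 2.09 and 2.27 in siControl replicates 1 to 3, and -1.47, 0.52, -0.48, -1.45 and -0.23 in P150KD replicates 1 to 5. The groups did not overlap, and the knockdown arrays spread over a wider range than the controls. The means were 2.25 ± 0.16 (SD, n = 3) and -0.62 ± 0.85 (SD, n = 5), a log2 fold change of -2.88 (SE 0.48, 95% confidence interval -3.98 to -1.77, limma adjusted p = 0.0107), or 7.34-fold lower. The mean signal remaining was 13.6% of control (95% confidence interval 6.32% to 29.4%). By array it was 7.57%, 30.0%, 15.0%, 7.68% and 17.9%, so that P150KD replicate 2 kept the most Chaf1a signal and replicates 1 and 4 the least. The samples are pools, in which fewer cells with a transcript and less of it per cell cannot be told apart.

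**Figure D1:**
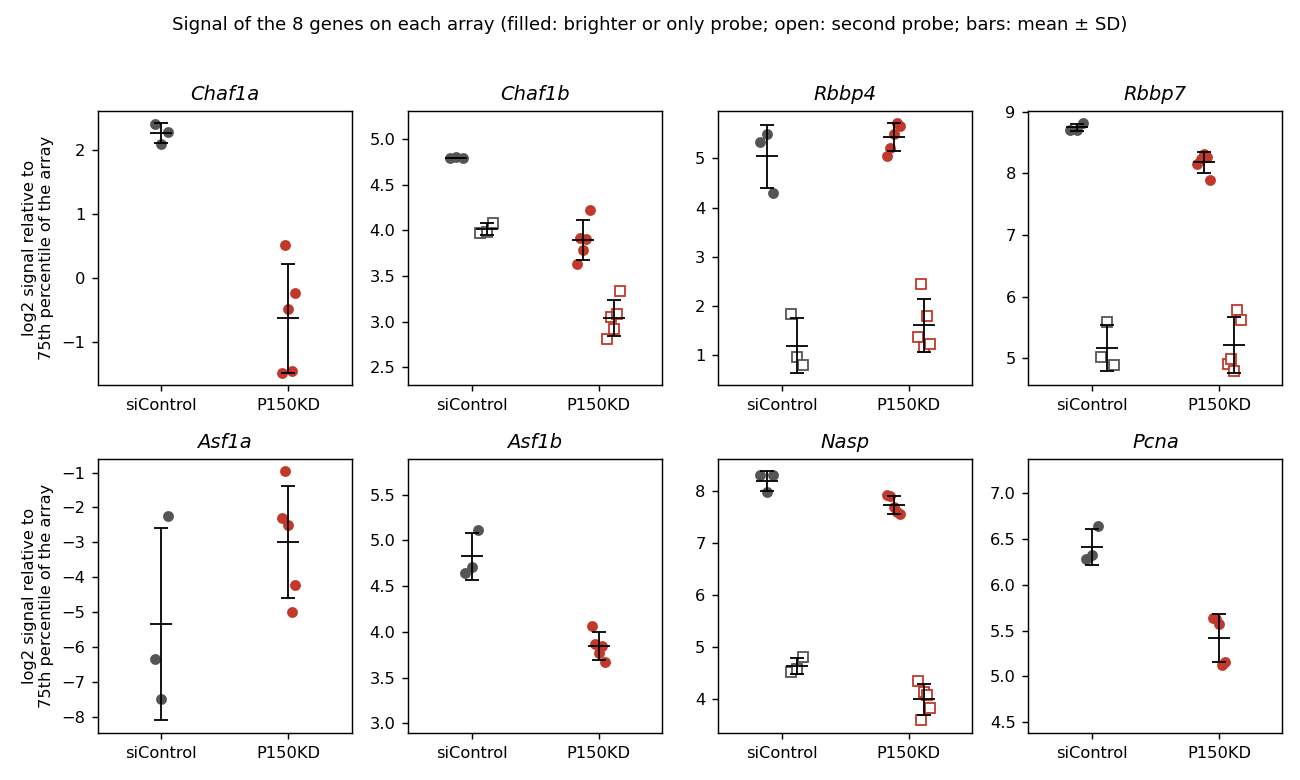
Log2 signal, with the array's 75th percentile at 0 (vertical axes, 1 scale per gene) for the 8 genes on the 3 siControl (grey) and 5 P150KD (red) arrays. Filled circles are the brighter or only probe, open squares the second probe, and bars the mean ± SD of a group. The groups are apart for Chaf1a, both probes of Chaf1b, the brighter Rbbp7 probe, Asf1b, both probes of Nasp, and Pcna.

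Chaf1b, the partner subunit that joins p150 in the complex, also fell, at both of its probes and by less than Chaf1a. Its promoter window is shown because Chaf1b was not the siRNA target. The window is chr16:93883651-93883950 on the plus strand of GRCm38.p6 and, as for all windows here, holds 250 bases before and 50 bases after the RefSeq start of the gene, 5′ to 3′, with capitals on matches to the GC box, the CCAAT box or the cell cycle element CHR, on either strand.
Chaf1b: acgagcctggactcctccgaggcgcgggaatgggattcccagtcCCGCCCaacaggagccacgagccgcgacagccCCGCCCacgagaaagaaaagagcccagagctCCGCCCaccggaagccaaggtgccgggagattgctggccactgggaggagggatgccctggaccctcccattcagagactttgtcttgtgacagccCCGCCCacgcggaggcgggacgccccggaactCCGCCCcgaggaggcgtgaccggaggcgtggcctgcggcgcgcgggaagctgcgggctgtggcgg
All 5 capitalised matches in it are GC boxes, on the minus strand, and the window holds neither of the other motifs.

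The brighter Chaf1b probe read 4.79, 4.80 and 4.79 in siControl and 3.63, 3.92, 3.78, 3.90 and 4.22 in P150KD. All 5 knockdown arrays lay below all 3 controls. The change was -0.90 (SE 0.18, 95% confidence interval -1.32 to -0.48, limma adjusted p = 0.0188), which left 53.6% of the control signal. The second probe read 3.97, 3.98 and 4.08 against 2.81, 3.05, 2.92, 3.08 and 3.33, a change of -0.97 (SE 0.17, limma adjusted p = 0.0132). The 2 probes thus gave changes that differed by less than either standard error. In both probes P150KD replicate 1 was the lowest array and replicate 5 the highest. Leaving out siControl replicate 1, 2 or 3 raised the adjusted p of the brighter probe to 0.0709, 0.0626 and 0.0557, with the change at -0.90 each time, and quantile normalization gave -0.65 with an adjusted p of 0.0655.

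Chaf1a, which the siRNA targets, fell by more than Chaf1b, which it does not. A larger fall of Chaf1a was the aim of the design, and the members were chosen with earlier results of these data known. The log2 difference of Chaf1a minus Chaf1b was -2.39, -2.71 and -2.51 in siControl and -5.10, -3.40, -4.27, -5.35 and -4.45 in P150KD. The level of this difference depends on the probes and is not read. Every knockdown array lay below every control, and the mean difference changed by -1.98 (exact two-sided permutation test over the 56 splits of the arrays, p = 0.0179, the smallest this design allows, and 0.0268 after Benjamini-Hochberg adjustment over 3 pairs). The arrays were not ordered alike in the 2 genes: P150KD replicate 4 kept 7.68% of Chaf1a and 54.0% of Chaf1b, whereas replicate 2 kept 30.0% and 54.7%. With each gene's probes averaged in place of the brighter one the change was -1.94 and its adjusted p was 0.0536. It kept its direction whichever array was left out, at -2.25 to -1.77, but the adjusted p was under 0.05 only without P150KD replicate 2 (0.0429) and otherwise between 0.0571 and 0.0857. Without P150KD replicate 1, 3, 4 or 5 the unadjusted p was 0.0571, above the smallest possible value of 0.0286, and without a siControl array it was 0.0476, the smallest possible.

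**Figure D2:**
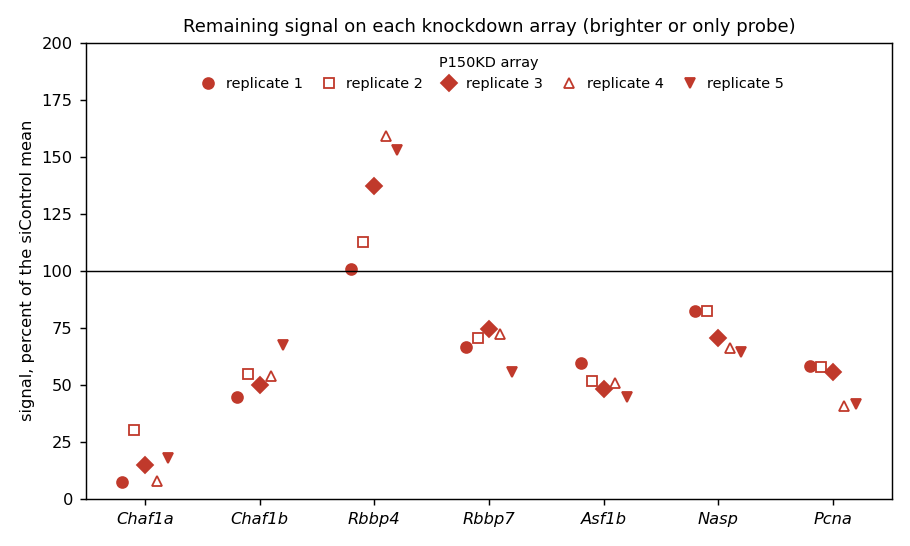
Signal of each P150KD array as a percent of the siControl mean (vertical axis), for the brighter or only probe of 7 genes, with 1 symbol per replicate. Asf1a is not drawn because it was above background on 1 of 3 controls. Chaf1a lies between 7.57% and 30.0%, Chaf1b between 44.7% and 67.5%, Asf1b between 44.8% and 59.4%, Pcna between 40.7% and 58.4%, and Rbbp4 between 100.8% and 159.3%.

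Among the 14590 other genes compared, those whose signals over the 8 arrays followed Chaf1a most closely were Ppp2r5c (Pearson r = 0.996), B2m (r = 0.989), Minpp1 (r = 0.984), Atp6v0b (r = 0.984) and Exosc6 (r = 0.984). Ppp2r5c, a regulatory subunit of protein phosphatase 2A, read 4.60, 4.54 and 4.62 in siControl and 3.07, 3.89, 3.55, 3.01 and 3.45 in P150KD. B2m, the light chain of class I major histocompatibility molecules, read 3.07, 3.02 and 2.86 against 1.04, 1.79, 1.61, 0.90 and 1.56. In these 2 genes, as in Chaf1a, P150KD replicate 2 was the highest knockdown array and replicates 1 and 4 were the lowest. All 5 of these genes fell. They were picked for their likeness to Chaf1a over these same arrays, so the shared array order and the falls follow from the choice.

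Among the genes that followed Chaf1b most closely were Atp6v0d1 (r = 0.991), Zyx (r = 0.986), Plet1 (r = 0.986) and Cldn7 (r = 0.986). Zyx, a protein of focal adhesions, read 3.37, 3.43 and 3.44 in siControl and 1.83, 2.22, 2.24, 2.32 and 2.91 in P150KD. Cldn7, a claudin of tight junctions, read 6.67, 6.80 and 6.89 against 5.45, 5.69, 5.69, 5.63 and 5.96. In both, as in Chaf1b, replicate 1 was the lowest knockdown array and replicate 5 the highest. Of these 4 genes, 3 fell, and the change of Atp6v0d1, a subunit of the vacuolar proton pump, was -0.57 (limma adjusted p = 0.0523). These correlations are across 8 arrays in 2 groups and the points share the gap between the groups. The genes were picked by these same correlations, so their likeness to Chaf1b in array order and direction follows from the choice.

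Neither Rbbp4, which encodes the small subunit, nor its paralogue Rbbp7 passed the threshold. Rbbp4 read 5.33, 5.49 and 4.30 in siControl and 5.05, 5.21, 5.49, 5.71 and 5.65 in P150KD at its brighter probe. Its lowest array was siControl replicate 3, and the groups overlapped. The change was 0.38 (SE 0.32, 95% confidence interval -0.35 to 1.12, limma adjusted p = 0.449). Without siControl replicate 3 it was 0.017, blocking on slide column gave 0.012, and with quantile and housekeeping scaling it was 0.63 and 0.93, with no adjusted p under the threshold. The second probe read 1.83, 0.97 and 0.80 against 1.37, 2.45, 1.17, 1.80 and 1.24, a change of 0.41 (SE 0.38, limma adjusted p = 0.503), again with overlap. The interval of the brighter probe reaches from a fall to 78.3% of control to a rise to 217.7%.

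Rbbp7 read 8.71, 8.71 and 8.81 in siControl and 8.16, 8.24, 8.32, 8.27 and 7.90 in P150KD at its brighter probe. No knockdown array reached the lowest control, but the change of -0.56 (SE 0.16, 95% confidence interval -0.95 to -0.18) had a limma adjusted p of 0.0603. It passed under the stricter filter on dim probes (adjusted p = 0.0363), with eBayes with trend and robust settings (0.00802) and with array weights (0.0400). The second Rbbp7 probe read 5.02, 5.59 and 4.89 against 4.91, 4.99, 4.80, 5.79 and 5.62, a change of 0.05 (SE 0.31, limma adjusted p = 0.926). The 2 probes of Rbbp7 therefore did not show one pattern, and the second held both its highest arrays in P150KD replicates 4 and 5. Rbbp4 and Rbbp7 encode closely related proteins, and cross-hybridisation between their probes was not tested because the probe sequences were not used here.

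At their brighter probes the difference between the 2 paralogues passed the permutation test, although neither gene passed the threshold by itself. Rbbp7 minus Rbbp4 was 3.38, 3.22 and 4.51 in siControl and 3.11, 3.03, 2.83, 2.56 and 2.25 in P150KD, a change of -0.95 (exact two-sided permutation test, p = 0.0179, and 0.0268 adjusted over 3 pairs). All 5 knockdown values lay below all 3 control values, of which siControl replicate 3 stood highest. Without that array the change was -0.55 (adjusted p = 0.0952), without siControl replicate 1 or 2 or P150KD replicate 1, 3, 4 or 5 the adjusted p was between 0.0571 and 0.0857, and with each gene's probes averaged it was -0.65 (adjusted p = 0.0714).

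Of the ASF1 pair, which accepts new H3-H4 dimers and passes them to CAF-1, Asf1b fell. Asf1a, which was dim in siControl, did not pass the threshold. In mouse tissues Asf1b is the form tied to proliferating cells. The promoter windows of both are shown because Asf1b fell and Asf1a did not pass the threshold. They are chr8:83955444-83955743 (plus strand) for Asf1b and chr10:53596711-53597010 (plus strand) for Asf1a, with capitals as above.
Asf1b: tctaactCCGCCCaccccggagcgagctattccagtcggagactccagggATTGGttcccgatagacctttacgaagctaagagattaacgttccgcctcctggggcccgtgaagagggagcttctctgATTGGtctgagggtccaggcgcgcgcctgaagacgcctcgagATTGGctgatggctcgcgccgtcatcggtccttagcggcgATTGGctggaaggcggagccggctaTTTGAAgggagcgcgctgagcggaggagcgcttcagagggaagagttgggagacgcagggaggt
Asf1a: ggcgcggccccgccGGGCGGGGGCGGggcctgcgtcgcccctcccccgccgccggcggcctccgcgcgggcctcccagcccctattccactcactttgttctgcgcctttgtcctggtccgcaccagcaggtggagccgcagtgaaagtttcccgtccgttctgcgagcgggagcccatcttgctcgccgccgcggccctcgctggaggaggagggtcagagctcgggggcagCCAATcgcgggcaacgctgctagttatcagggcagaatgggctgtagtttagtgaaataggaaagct
The Asf1b window holds 4 CCAAT boxes, 1 CHR and 1 GC box. That of Asf1a holds 1 CCAAT box, 2 adjoining GC boxes and no CHR.

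Asf1b read 4.64, 4.71 and 5.12 in siControl and 4.07, 3.87, 3.77, 3.85 and 3.67 in P150KD. The highest knockdown array lay below the lowest control. The means were 4.83 ± 0.26 (SD, n = 3) and 3.85 ± 0.15 (SD, n = 5), a change of -0.98 (SE 0.19, 95% confidence interval -1.41 to -0.55, limma adjusted p = 0.0162). The remaining signal was 50.7% of control, and by array it ran from 44.8% to 59.4%, a narrower span than that of Chaf1a. This change stayed past the threshold when any 1 of the 8 arrays was left out, with values between -1.07 and -0.83.

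Asf1a was well above background on 1 of 3 siControl arrays and on 5 of 5 P150KD arrays. It thus met the filter of at least 3 arrays through P150KD. It read -6.33, -7.47 and -2.24 in siControl, where replicate 3 was the array with measurable signal, and -2.29, -0.96, -2.49, -5.00 and -4.21 in P150KD. The groups overlapped through siControl replicate 3. The change was 2.36 (SE 1.35, 95% confidence interval -0.79 to 5.51, limma adjusted p = 0.279), an interval too wide to place Asf1a on either side of its control level. Without siControl replicate 2 it was 1.30 and without siControl replicate 3 it was 3.91, and normexp background correction gave 1.01, with the adjusted p above the threshold each time (0.0857 to 0.589). Since 2 control values are not above background, no difference between Asf1b and Asf1a is given, although that pair counts among the 3 over which the pair tests were adjusted.

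Nasp, the chaperone that keeps a reserve of soluble H3-H4, was lower on every knockdown array at both probes without passing the test. The brighter probe read 8.29, 7.97 and 8.30 in siControl and 7.91, 7.90, 7.68, 7.59 and 7.55 in P150KD. The change was -0.46 (SE 0.18, 95% confidence interval -0.87 to -0.04, limma adjusted p = 0.129). The second probe read 4.52, 4.58 and 4.80 against 4.34, 3.59, 4.13, 4.07 and 3.83, a change of -0.64 (SE 0.21, limma adjusted p = 0.0888). The nearest arrays of the 2 groups, siControl replicate 2 and P150KD replicate 1, were 7.97 and 7.91 at the brighter probe. With eBayes with trend and robust settings the adjusted p was 0.0363 for the brighter probe and 0.0437 for the second.

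Pcna, the clamp that brings CAF-1 to the fork, fell to 50.2% of control, beside 50.7% for Asf1b and 53.6% for Chaf1b. Its promoter window, chr2:132253131-132253430 on the minus strand of GRCm38.p6, is shown to set it beside theirs.
Pcna: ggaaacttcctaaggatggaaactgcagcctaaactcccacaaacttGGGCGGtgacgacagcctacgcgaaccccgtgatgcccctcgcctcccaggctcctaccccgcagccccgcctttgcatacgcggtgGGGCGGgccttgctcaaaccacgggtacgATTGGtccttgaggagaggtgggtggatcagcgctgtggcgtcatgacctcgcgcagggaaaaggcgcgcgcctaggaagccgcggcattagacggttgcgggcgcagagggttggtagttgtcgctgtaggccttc
It holds 2 GC boxes and 1 CCAAT box.

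Pcna read 6.28, 6.33 and 6.64 in siControl and 5.64, 5.63, 5.57, 5.12 and 5.16 in P150KD. The groups were apart, and P150KD replicates 4 and 5 were the lowest arrays. The means were 6.42 ± 0.20 (SD, n = 3) and 5.42 ± 0.26 (SD, n = 5), a change of -0.99 (SE 0.21, 95% confidence interval -1.48 to -0.51, limma adjusted p = 0.0221). Leaving out siControl replicate 1, 2 or 3 raised the adjusted p to 0.0635, 0.0616 and 0.0726, and scaling to the array median raised it to 0.0672, with changes between -1.06 and -0.88.

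Promoter windows of all 8 genes were found in the RefSeq table. The CCAAT box (CCAAT) was in 7 of the 8, with Chaf1b as the exception, against 37.4% of all 32851 windows of the same length. The GC box (GGGCGG) was in 7 of the 8, with Nasp as the exception, against 35.7%. The CHR (TTTGAA or TTCGAA), an element of genes expressed late in the cell cycle, was in Asf1b and Nasp, 2 of 8, against 19.2%. An E2F site, searched as TTTCCCGC, TTTCGCGC, TTTGCCGC and TTTGGCGC, was in 0 of 8 against 2.26%. Both strands were searched for each motif. A match describes the letters of the window, and no match says only that these letters are not in it.

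**Figure D3:**
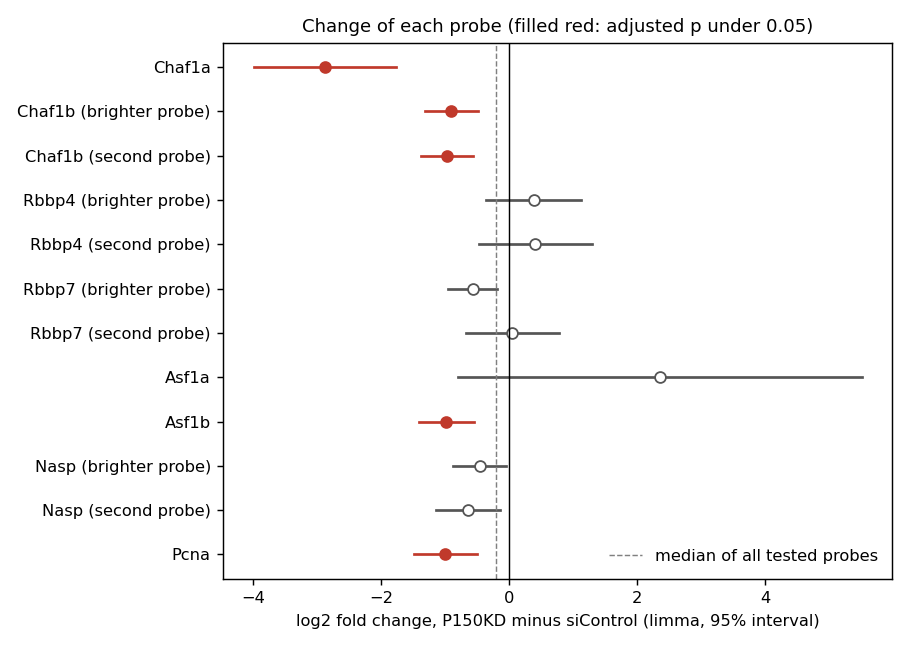
Log2 fold change of P150KD over siControl (horizontal axis) for each of the 12 probes, with its 95% limma interval. Filled red points had an adjusted p under 0.05: Chaf1a at -2.88, the 2 Chaf1b probes at -0.90 and -0.97, Asf1b at -0.98 and Pcna at -0.99. The dashed line is the median of all tested probes, -0.20.

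By their brighter or only probe, Chaf1a, Chaf1b, Asf1b and Pcna fell, 4 of 8 genes, against 10.5% of the 14598 genes tested. No member rose, against 6.65%, and 17.1% of all genes changed in either direction. By probes, 13.9% of all changed and 6.28% rose. At an unadjusted limma p under 0.05, 8 of the members' 12 probes were lower and 0 higher. Without Chaf1a, which the siRNA targets, 3 of 7 genes fell. Of the members' probes 5 of 12 fell, against 7.66% of all 30348, and 8 of 12 were below siControl on every array, against 17.7%. None was above siControl on every array, against 9.36%. The median change of the 8 genes was -0.73 on the log2 scale and that of all tested genes -0.24. Brighter probes fell more often over the whole array: of the 3035 probes with the highest mean over all 8 arrays, 11.4% fell, and their median change was -0.27. These held 5 of the members' probes, of which 1, that of Pcna, fell. The members were chosen with earlier results of these data known, so these shares describe them and test nothing.

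The size of the falls, and the calls of all but Chaf1a, depended on how the arrays were scaled. Relative to the median of all tested genes, -0.24, the changes of Chaf1b, Asf1b and Pcna were smaller by that amount. Scaling each array to 13 housekeeping genes added 0.55 to the change of every gene, moved the median of all tested genes to 0.31 and the share of risen among called probes from 45.1% to 87.9%. With that scaling Chaf1a still fell, at -2.33 (limma adjusted p = 0.0139). Chaf1b was at -0.35 (adjusted p = 0.322), Asf1b at -0.43 (0.170), Pcna at -0.45 (0.133), Rbbp7 at -0.02 (0.961) and Nasp, with its sign turned, at 0.09 (0.75). All 13 housekeeping genes were lower in P150KD with the 75th percentile scaling, with a median of -0.29 beside -0.24 for all tested genes. Of the 13, 4 fell, Pgk1, Sdha, Actb and Gapdh, where 10.5% of all tested genes did. The calls of Actb and Gapdh were lost without any 1 siControl array. Quantile normalization moved the share of risen among called probes to 58.2% and kept Chaf1a, Asf1b and Pcna past the threshold.

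**Figure D4:**
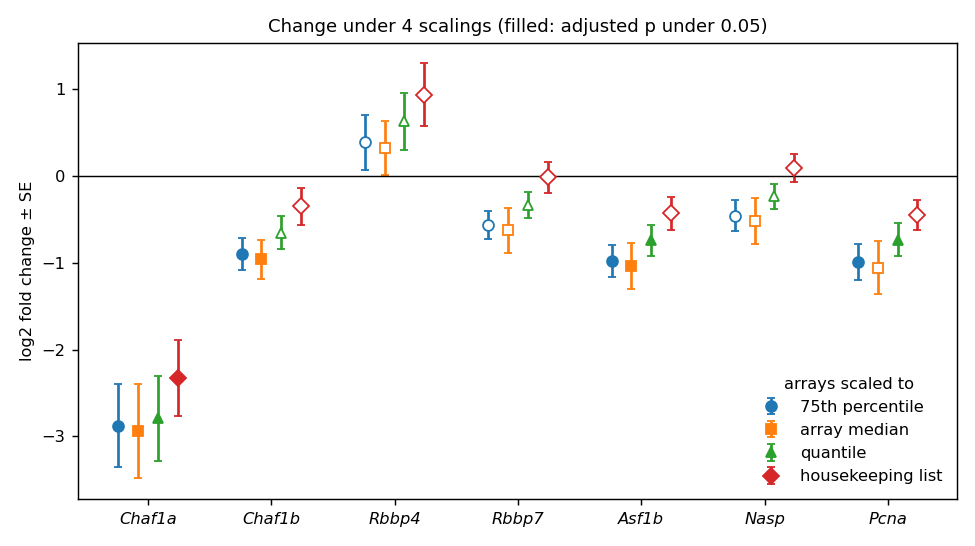
Log2 fold change ± SE (vertical axis) of the members' brighter or only probes when the arrays are scaled to the 75th percentile, by quantile normalization, to the median or to the housekeeping genes; filled symbols had a limma adjusted p under 0.05. With housekeeping scaling Chaf1a at -2.33 is the member past the threshold, and Nasp lies at 0.09. Asf1a is not drawn.

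All 8 arrays were on 1 slide with 1 scan date, in 2 columns. The first column held the 3 siControl arrays and P150KD replicate 1, and the second held P150KD replicates 2 to 5. With the column as a block, which rests the comparison on P150KD replicate 1 alone, Chaf1a changed by -3.72 (limma adjusted p = 0.0509), Chaf1b by -1.16 (0.0919), Asf1b by -0.75 (0.250) and Pcna by -0.78 (0.297). Their directions were those of the unblocked fit. P150KD replicates 2 to 5, all in the other column, differed from the controls by -2.66, -0.83, -1.04 and -1.05 in the same order, values in which column and group cannot be told apart.

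Markers of other stages moved with the groups. For the counts of called genes below, 6.65% of all tested genes rose and 10.5% fell. The linear levels of the 2-cell stage list, which mark the embryo's first wave of transcription, summed to between 15.3 and 19.2 in siControl and between 75.6 and 310 in P150KD, and 8 of the 10 tested genes rose. Usp17lb, among these 8, was above background on 0 of 3 siControl and 5 of 5 P150KD arrays. It thus met the filter through P150KD alone, and the size of its rise is not read. The oocyte and maternal list summed to between 9.58 and 11.3 and between 13.7 and 22.7, with 2 of 11 tested genes risen, Zp3 and Zar1l, and Mos above background on no array. Zar1l was above background on 0 of 3 siControl and 5 of 5 P150KD arrays, so it too met the filter through P150KD alone. Its call was lost in 6 of the 8 fits that left out 1 array, every siControl array among them. The morula list summed to between 504 and 588 and between 387 and 478, and Sox2, Tead4 and Gata3 of its 12 genes fell. The call of Tead4 was lost without any 1 siControl array, and that of Gata3 without any of these or P150KD replicate 3, 4 or 5. The sperm list summed to between 0.229 and 0.309 and between 0.401 and 2.02, with Akap4 and Spem1 above background on no array and 0 of 5 tested genes past the limma threshold (2 higher at an unadjusted p under 0.05). The leukocyte list overlapped, at 5.10 to 16.7 and 9.98 to 14.6, with Ptprc, Lyz2 and Tyrobp above background on no array and Cd74, Coro1a and Srgn of 6 tested genes risen. The call of Coro1a was lost without siControl replicate 2 or 3, and that of Srgn in 7 of the 8 fits. The part of any of these in the members' changes was not tested.

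The other chaperones and enzymes of the H3-H4 route were mostly not past the threshold. Of the 14 tested H3-H4 chaperones, kinases and import factors, 2 fell and 0 rose, where 10.5% and 6.65% of all tested genes did (unadjusted p under 0.05: 3 lower and 1 higher), with a median change of -0.20. Tonsl, a reader of new histone H4 at the fork, read 2.54, 2.80 and 3.02 in siControl and 1.23, 1.49, 1.67, 1.63 and 1.90 in P150KD, a change of -1.20 (SE 0.21, limma adjusted p = 0.0128). Mcm2, the helicase subunit that holds parental H3-H4, changed by -0.66 (SE 0.17, limma adjusted p = 0.0415), a call that was lost when any 1 of siControl replicates 1 to 3 or P150KD replicates 1 to 4 was left out. Tlk1, the kinase of ASF1, was at -0.77 (adjusted p = 0.0552), and Cdan1, which binds ASF1 in the cytoplasm, at 1.32 (adjusted p = 0.0577). With housekeeping scaling 4 genes of this list rose and 0 fell.

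Several genes that work with PCNA fell. Of 24 tested genes that load, unload or work with the clamp, 7 fell and 0 rose, where 10.5% and 6.65% of all tested genes did (unadjusted p under 0.05: 11 lower and 0 higher), with a median of -0.55. Uhrf1, which brings DNA methylation maintenance to the fork, read 5.38, 5.51 and 5.63 in siControl and 4.10, 3.98, 3.81, 4.30 and 4.41 in P150KD, a change of -1.39 (SE 0.19, limma adjusted p = 0.00619). Fen1, the flap endonuclease of Okazaki fragments, read 6.70, 6.67 and 6.84 against 5.59, 5.81, 5.59, 5.52 and 5.39, a change of -1.15 (SE 0.16, limma adjusted p = 0.00642). Both were apart between the groups, and both stayed past the threshold whichever array was left out. Lig1, the ligase that seals these fragments, changed by -1.18 (adjusted p = 0.0137; lost without siControl replicate 1), and Rfc5, a subunit of the clamp loader, by -1.03 (adjusted p = 0.0161; lost without siControl replicate 2 or 3). The other 3 that fell were Chtf18, Atad5 and Pold2. With 1 array left out the count of fallen genes was between 3 and 6, with the lowest count when siControl replicate 1, 2 or 3 was missing. It was 1, Fen1, with housekeeping scaling, where the median was 0.002. Blocking on the slide column left 0.

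**Figure D5:**
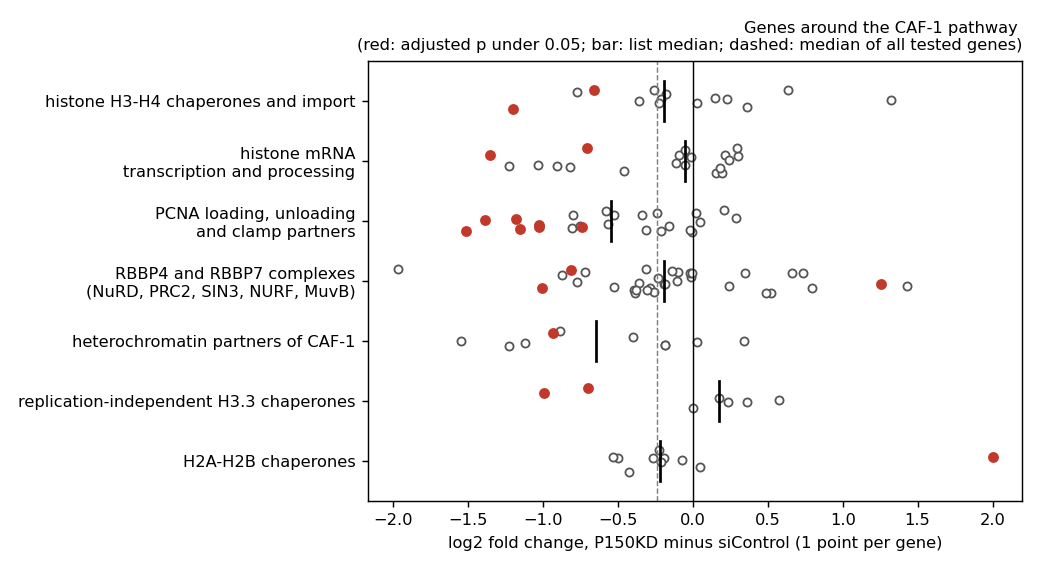
Log2 fold change of P150KD over siControl (horizontal axis), 1 point per tested gene, for 7 lists of genes around the CAF-1 pathway. Red points had a limma adjusted p under 0.05, bars are list medians and the dashed line is the median of all tested genes at -0.24. The clamp list holds 7 red points, all below 0, and Npm2 is the red point at 2.0.

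Genes that make or process replication-dependent histone mRNA showed 2 falls and 0 rises among 19 tested, beside the same 10.5% and 6.65% (unadjusted p under 0.05: 5 lower and 0 higher), with a median of -0.06. Cpsf2 and Cpsf3, subunits of the machinery that cuts the 3′ end of the mRNA, changed by -1.35 (SE 0.33, limma adjusted p = 0.0370) and -0.71 (SE 0.16, limma adjusted p = 0.0281). Each call was lost in at least 6 of the 8 fits that left out 1 array, every siControl array among them. Slbp, which binds the stem-loop of histone mRNA, was at -0.82 (adjusted p = 0.0576), and Zfp473, a factor of histone mRNA processing, at -1.23 (adjusted p = 0.0906). The histone genes themselves were grouped by class after their values had been seen. Of tested genes, 6 of 7 for H3, 3 of 8 for H4, 4 of 10 for H2B and 2 of 11 for H2A rose, where 6.65% of all tested genes did, with medians of 1.47, 1.02, 1.88 and 0.16, and 0 in each class fell (unadjusted p under 0.05: 1 lower, in H2B). The array reads amplified RNA, and how well histone mRNA, most of which has no poly(A) tail, was amplified was not tested.

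Few genes of the other complexes that hold RBBP4 or RBBP7 were called. Of 33 tested genes of NuRD, PRC2, SIN3, NURF and MuvB, 1 rose and 2 fell, where 6.65% and 10.5% of all tested genes did, and without siControl replicate 1 both counts were 0 (unadjusted p under 0.05: 2 higher and 7 lower), with a median of -0.20. Hdac2, a deacetylase of NuRD and SIN3, read 2.11, 2.80 and 2.52 in siControl and 3.70, 3.66, 3.45, 4.02 and 3.82 in P150KD, a change of 1.25 (SE 0.22, limma adjusted p = 0.0129, lost without siControl replicate 1). Mtf2, an accessory subunit of PRC2, changed by -1.01 (SE 0.19, limma adjusted p = 0.0163, lost without siControl replicate 1, 2 or 3), and Sin3b, the scaffold of a SIN3 complex, by -0.81 (SE 0.18, limma adjusted p = 0.0268, lost in 5 of 8 such fits, every siControl array among them). Ezh2, the methyltransferase of PRC2, was at -0.72 (adjusted p = 0.0516).

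Chaperones of H2A-H2B and of the replacement histone H3.3 were also listed. Of 7 tested chaperones of the replacement histone H3.3, 2 fell and 0 rose, beside 10.5% and 6.65% of all tested genes, with a median of 0.17. Daxx, which places H3.3 with Atrx at repeats, changed by -0.70 (SE 0.16, limma adjusted p = 0.0314), and Dek, an H3.3 chaperone, by -0.995 (SE 0.24, limma adjusted p = 0.0326). Each of these calls was lost in 6 or 7 of the 8 fits that left out 1 array, every siControl array among them. Hira, the main H3.3 chaperone, was at 0.57 (adjusted p = 0.372) and its partner Ubn1 at 0.36 (adjusted p = 0.256). Of 10 tested H2A-H2B chaperones 1 rose and 0 fell, where 6.65% and 10.5% of all tested genes did. At an unadjusted limma p under 0.05, 1 was higher and 1 lower, and the median was -0.22. The riser was Npm2, the egg nucleoplasmin, which read -1.72, -2.62 and -1.87 in siControl and -0.48, -0.09, 0.01, -0.08 and 0.30 in P150KD, a change of 2.0 (SE 0.27, limma adjusted p = 0.00557). Ssrp1, a subunit of FACT, was at -0.50 (adjusted p = 0.0687), Nap1l4 at -0.43 (0.234) and Npm1 at -0.27 (0.332). Whether these lists differ from the 8 genes was not tested.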

How the data were processed

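RNA of 8 pools of morulae was read on 1-colour Agilent arrays. Per the submitters' processing notes the scans were read with Agilent Feature Extraction 10.5.1. The deposited processed signals are intensities on a linear scale, background-subtracted per the file headers, with flags for spots well above background, saturated or outlying. The deposited series table, on a log2 scale, matched the values computed here after centring each probe on its median (99.97% within 0.1 log2) and served as an alternative. The coordinate names in the scanner files are of the build mm9, and promoter windows are RefSeq's on GRCm38.p6.

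Spots of 1 probe were averaged, log2 was taken and the 75th percentile of each array subtracted. Probes well above background on at least 3 of 8 arrays were tested with limma 3.58.1 (R 4.3.3; lmFit, eBayes, two-sided, Benjamini-Hochberg over all tested probes), after a check on simulated data. The tested probe with the highest mean stood for its gene. Of the probes, 27229 were named through a RefSeq accession, 1456 had an accession without a match and 26996 another kind of name. The number of arrays limits the precision. Named genes are all members, up to 4 genes per list with the smallest p, and the 5 genes most like Chaf1a and Chaf1b, of which 1 is not reported here; the other fallen clamp genes, the housekeeping genes and Atp6v0d1's value follow from their counts. The members and lists were chosen with earlier results of these data known. Alternatives covered background correction (normexp, offset 50, on the median signal), scaling, dim-probe filter, slide column, replicate number, variance model, array weights, probe summary and each array left out.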

Additional observations from a re-analysis of the deposited data

How the results depend on the processing

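Over 245 recomputed member changes, pair differences and probe counts, 186 kept their direction and side of the threshold or, for counts, stayed near the value reported. These include results that were not past the threshold and stayed so, such as Rbbp4 (20), Asf1a (19) and Asf1b minus Asf1a (16). Chaf1a stayed past the threshold in 18 of 20 alternatives (-3.16 to -2.33 in those 18), Asf1b in 17 of 20 and Chaf1b and Pcna in 13 of 20 each. Chaf1a minus Chaf1b and Rbbp7 minus Rbbp4 each stayed past it in 6 and lost it in 10. The count of probes fallen stayed near its value in 9 and was lower in 10. The slide column as a block gave -3.72 for Chaf1a, -1.16 for Chaf1b, -0.75 for Asf1b, -0.78 for Pcna, -2.56 for Chaf1a minus Chaf1b and -0.60 for Rbbp7 minus Rbbp4, and 442 probes risen and 271 fallen; it compares 1 knockdown array with the 3 controls. Replicate numbers did not pair the arrays (correlations of -0.01, -0.07 and -0.02 between same-numbered arrays). The replicate block over replicates 1 to 3, which uses fewer arrays, gave -2.73 for Chaf1a, -1.01 for Chaf1b, -0.92 for Asf1b, -0.80 for Pcna, -1.72 and -0.72 for the pairs, and 0 probes risen and 0 fallen. In these blocks the permutation p for a pair cannot go below 0.25 and 0.125.

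Housekeeping scaling gave -0.35 for Chaf1b, -0.43 for Asf1b, -0.45 for Pcna, 0.089 for Nasp, 3808 probes risen and 525 fallen, against 1907 and 2324. Quantile normalization gave -0.65 for Chaf1b and 1487 probes fallen, and the median -1.06 for Pcna and 1512 fallen. Rbbp7 passed with probes above background on all 8 arrays (-0.56), with trend and robust settings (-0.56) and with array weights (-0.53), and Nasp with trend and robust settings (-0.46). Means of probes gave -1.94 for Chaf1a minus Chaf1b and -0.65 for Rbbp7 minus Rbbp4. The second Rbbp7 probe turned to -0.011 with the median, -0.26 and -0.27 in the column and replicate blocks, and -0.015 with array weights. The cause of these shifts was not tested.

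With 1 array left out the ranges were -0.98 to -0.83 for Chaf1b, -1.06 to -0.88 for Pcna, -2.25 to -1.77 for Chaf1a minus Chaf1b, -1.19 to -0.55 for Rbbp7 minus Rbbp4, -0.090 to 0.26 for the second Rbbp7 probe, 1016 to 1770 probes risen and 690 to 1979 fallen. Without a siControl array the permutation p of a pair cannot go below 0.0476, and without a P150KD array not below 0.0286. Over all alternatives, fallen genes ran from 0 to 9 for the clamp list (7 reported), 0 to 5 for the RBBP4 and RBBP7 complexes (2), 0 to 4 for histone mRNA (2), 0 to 3 for the H3-H4 chaperones (2) and the heterochromatin partners (1), 0 to 2 for the H3.3 chaperones (2) and 0 to 1 for the H2A-H2B chaperones (0). Risen genes ran from 0 to 4 for the RBBP4 and RBBP7 complexes (1) and the H3-H4 chaperones (0), and from 0 to 1 for the heterochromatin partners (0), the H3.3 chaperones (0) and the H2A-H2B chaperones (1). In both blocks every one of these counts was 0. Asf1a, near background, gave no value where all 8 arrays had to be above it.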

Other observations

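The proteins with which CAF-1 is known to work at heterochromatin were also listed. By limma, 1 of 10 tested genes fell and 0 rose (unadjusted p under 0.05: 3 lower and 0 higher), where 10.5% and 6.65% of all tested genes did. The median change was -0.64, beside -0.24 for all tested genes and -0.10 for the list with housekeeping scaling. Trim28, the corepressor of zinc finger repressors, read 5.88, 6.01 and 6.36 in siControl and 5.01, 4.98, 4.97, 5.26 and 5.53 in P150KD, a change of -0.93 (SE 0.21, limma adjusted p = 0.0283). That call was lost without any 1 of siControl replicates 1 to 3 or P150KD replicates 1 to 4. Kmt5c, the methyltransferase of H4K20me3, read 4.02, 3.44 and 2.94 against 2.57, 2.16, 2.79, 2.47 and 2.89, a change of -0.89 (SE 0.29, adjusted p = 0.0812). Cbx5, which encodes HP1 alpha, a direct partner of p150, read 0.83, 0.44 and -0.54 against -0.59, -0.27, -1.11, -1.12 and -1.32, a change of -1.12 (SE 0.38, adjusted p = 0.0914). Cbx1, which encodes HP1 beta, changed by -1.23 (SE 0.64, adjusted p = 0.236), with overlap between the groups.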
